A study of Rattus norvegicus with 24 samples.

Results

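The 10 genes followed here belong to platelets and to megakaryocytes, their precursor cells: Itga2b, Itgb3, Gp1ba, Gp9, Gp5, Pf4, Ppbp, Plek, P2ry12 and F2rl2. They were taken by name and read array by array in circulating white blood cells, with nasal epithelium beside them. Of the 10 genes, 9 had a probe set with a single gene symbol in the platform's gene table, and each of the 9 had exactly 1, among 29214 probe sets in all. Itga2b was not analysed here.

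Male Fischer rats, about 8 weeks old at the start, breathed 2 ppm formaldehyde, vaporised from isotope-labelled paraformaldehyde, while held in nose-only tubes, 6 hours each day. Exposure lasted 7 or 28 days, and the controls of each day sat in the same kind of tube with room air (0 ppm). RNA of nasal epithelium from the maxilloturbinate and of white blood cells separated in cell preparation tubes was hybridised to Affymetrix arrays, 24 in all: 3 arrays for each of the 8 combinations of tissue, day and exposure. The question put to the platelet genes is whether inhaled formaldehyde changed their level in blood and in the nose at either day.

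Platelets are fragments of megakaryocytes that carry over RNA but have no nucleus. They adhere to damaged vessel wall through the glycoprotein Ib-IX-V complex, become activated through receptors for ADP and thrombin, release the contents of their granules, and bind to one another through the fibrinogen receptor, integrin αIIbβ3. Density separation of blood leaves platelets beside mononuclear cells, and the labels do not say whether platelets were removed.

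The labels do not state that the 3 arrays of a group came from separate animals, and a p-value here measures no more than the spread between these samples, which may be technical. Levels are given as log2 of the deposited intensity, and differences are log2 differences with the standard error (SE) of limma, a linear model that shares information on the spread among probe sets. A gene was called where the two-sided p, after Benjamini-Hochberg adjustment across every probe set tested, was under 0.05. Median log2 levels per array ran from 7.45 to 7.50 in blood at 7 days and from 6.82 to 6.90 at 28 days, so the days lie on different scales. Among the 28 day blood arrays, control replicate 2 stood apart, as did control replicate 2 of 7 days in the neutrophil genes (8.75, against 7.73 and 7.70). The 28 day array had the highest mean of its day for the neutrophil genes (8.74, against 7.00 and 7.10 on the other control arrays) and for the monocyte genes (10.04). In bulk samples a larger number of cells of a type and more RNA per cell cannot be told apart.

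The promoters of Gp1ba, Gp9 and Gp5 are shown because these genes encode subunits of 1 receptor, the glycoprotein Ib-IX-V complex. Their values are given gene by gene below. Gp1bb, also of this complex, had no probe set with a single gene symbol and was not analysed. Each line holds the 250 bases before the transcription start in RefSeq's GRCr8 table, 5′ to 3′ on the strand of the gene, with matches to short motifs in capitals. The windows lie at chr10:55851309-55851558 for Gp1ba, chr4:121792592-121792841 for Gp9 and chr11:83948257-83948506 for Gp5, all on the plus strand. The Gp1ba window lies inside the span that RefSeq gives the gene.
Gp1ba: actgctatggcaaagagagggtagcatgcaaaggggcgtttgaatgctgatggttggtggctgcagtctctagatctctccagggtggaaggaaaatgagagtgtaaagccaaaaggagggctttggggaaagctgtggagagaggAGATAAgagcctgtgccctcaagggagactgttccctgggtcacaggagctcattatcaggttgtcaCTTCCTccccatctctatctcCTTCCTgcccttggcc
Gp9: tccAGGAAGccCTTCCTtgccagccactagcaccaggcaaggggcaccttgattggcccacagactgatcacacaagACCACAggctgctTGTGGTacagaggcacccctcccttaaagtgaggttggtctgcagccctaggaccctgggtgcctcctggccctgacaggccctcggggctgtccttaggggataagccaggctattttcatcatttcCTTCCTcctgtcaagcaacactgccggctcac
Gp5: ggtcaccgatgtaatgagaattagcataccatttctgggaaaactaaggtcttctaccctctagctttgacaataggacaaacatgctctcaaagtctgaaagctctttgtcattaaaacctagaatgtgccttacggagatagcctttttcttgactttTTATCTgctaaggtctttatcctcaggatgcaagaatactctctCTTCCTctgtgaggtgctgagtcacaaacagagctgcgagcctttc

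The motifs searched on both strands were AGATAA, bound by GATA factors, AGGAAG, bound by ETS factors, and TGTGGT, bound by RUNX factors. These factor families direct megakaryocyte genes. A window was found for 6 of the 10 genes: Itga2b, Gp1ba, Gp9, Gp5, Ppbp and F2rl2. AGATAA was present in 2 of the 6, at 104 bases before the start of Gp1ba and at 90 bases before that of Gp5, and in 10.3% of all 33469 windows of the table. AGGAAG was present in 4 of the 6 (Gp1ba, Gp9, Gp5 and F2rl2) and in 29.51% of all windows, and TGTGGT in 3 of the 6 (Itga2b, Gp9 and Ppbp) and in 14.47%. The matches describe the letters of these windows and no more.

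The level of the platelet genes was first set between the tissues on the control arrays, as a check of the tissue labels. All 8 genes tested in both tissues were higher in blood, by 4.27 to 6.01 at 7 days (19.3- to 64.4-fold) and by 4.35 to 5.84 at 28 days (20.5- to 57.2-fold). The background was 16.0% of 20096 probe sets called higher in blood at 7 days and 25.8% at 28 days. Without overlap of arrays, 19.3% and 23.2% of probe sets lay higher in blood. Under quantile normalization and median centring all 8 members stayed above 0 at both days, while the share of calls in that direction moved from 21.45% to 61.64% and 73.45% at 7 days, and from 36.24% to 61.45% and 72.6% at 28 days.

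Pf4, the chemokine platelet factor 4, had the largest difference at 7 days: 13.21, 13.20 and 13.20 on the blood control arrays against 7.12, 7.18 and 7.28 in nose (6.01 ± 0.11 SE). For Gp1ba, the von Willebrand factor binding subunit, the difference at 28 days was 5.84 ± 0.13. P2ry12, the ADP receptor blocked by clopidogrel, differed least at 7 days (4.27 ± 0.11). F2rl2, which encodes the thrombin-cleaved receptor PAR3, was left out of tests in nose because its mean of 6.51 there lay under the filter level of 6.61 for dim probe sets. Fitted without that filter it was 6.16 ± 0.08 higher in blood at 7 days and 6.00 ± 0.08 at 28 days. The 28 day nose control means of F2rl2 (6.39), Gp1ba (6.53) and Plek (6.52) lay under the filter level, where a signal above background is not shown. The sizes of the differences of these genes between tissues at 28 days, the 57.2-fold of Gp1ba included, are therefore uncertain. The filter level is a percentile over the nose arrays of both days and no measured background. At 7 days the nose control array medians were 8.25 to 8.28, and of the members only Itgb3 (8.38) had a nose control mean above them. Under them lay F2rl2 (7.05), Pf4 (7.19), Plek (7.41), Gp5 (7.46), Ppbp (7.57), Gp1ba (7.60), P2ry12 (8.12) and Gp9 (8.13). At 28 days these medians were 7.35 to 7.42, and Itgb3 (7.33), Gp5 (7.03), Pf4 (7.06) and P2ry12 (7.00) lay under them too. The sizes of the differences of these genes between tissues at those days are uncertain too.

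**Figure D1:**
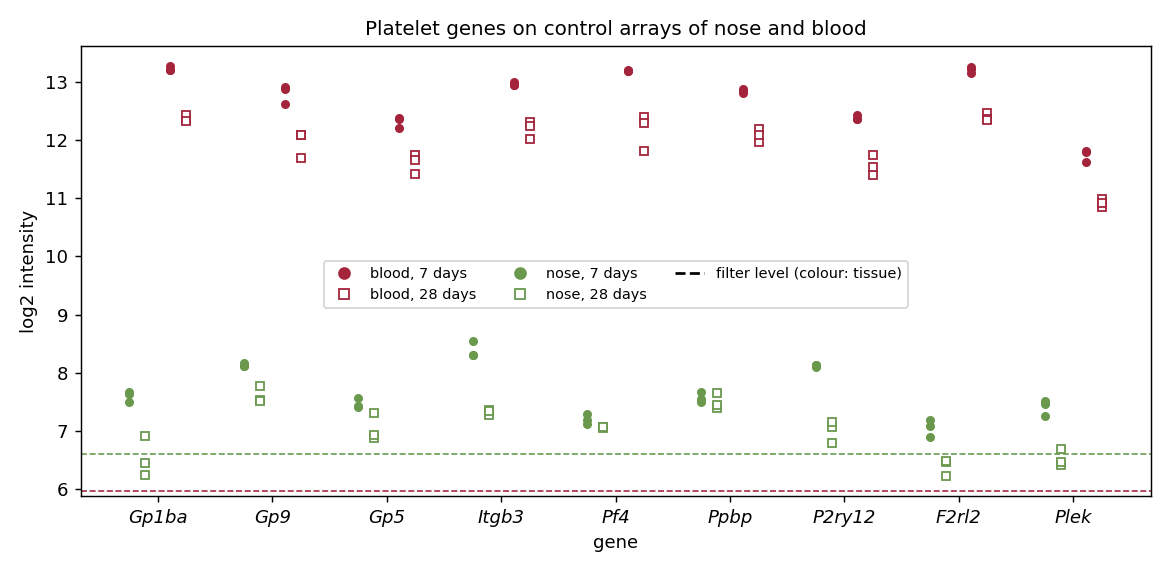
Log2 intensity of the 9 platelet genes (x axis) on every control array of blood and nose at 7 days (filled) and 28 days (open), with dashed lines at the filter level of each tissue, 5.96 in blood and 6.61 in nose. Every blood point lies above every nose point of the same gene, and F2rl2 in nose lies around the filter level.

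The tissue labels were also read from markers. On the 7 day control arrays the epithelial adhesion gene Epcam stood at 11.37 in nose and 5.21 in blood, and the T cell receptor subunit Cd3e at 12.06 in blood and 8.25 in nose. The blood arrays therefore carried lymphocyte and platelet genes at high levels and Epcam under the blood filter level.

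After 28 days of exposure the platelet genes in blood were higher than in the room air controls. All 9 differences were above 0, from 0.33 to 0.76 (1.25- to 1.70-fold), beside 44.17% of all probe sets above 0. Their median was 0.45 beside a median of −0.02 over all 21910 probe sets. Plek, P2ry12, Ppbp, F2rl2, Gp1ba and Gp9 rose, 6 of 9, while Gp5, Itgb3 and Pf4 did not pass the test. The background was 3.95% of probe sets called higher. For 9 of 9 genes every exposed array lay above every control array, against 8.77% of all probe sets.

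Within the adhesion complex, Gp1ba and Gp9 rose and Gp5 did not pass. Gp1ba, whose protein binds von Willebrand factor on the vessel wall, stood at 12.35, 12.43 and 12.33 on the control arrays and at 12.64, 12.79 and 12.74 on the exposed arrays. The exposed arrays all lay higher, by 0.36 ± 0.08 SE (1.28-fold, adjusted p = 0.0187, limma). Gp9, the small subunit needed for the complex to reach the surface, read 12.09, 11.70 and 12.09 in controls and 12.41, 12.53 and 12.29 after exposure. The groups did not overlap, control replicate 2 was the lowest, and the difference was 0.45 ± 0.12 (1.36-fold, adjusted p = 0.0464, limma). Gp5, the subunit cleaved by thrombin, read 11.74, 11.42 and 11.66 in controls and 12.06, 12.33 and 11.81 after exposure. Here the lowest exposed array lay close to the highest control, and the difference of 0.46 ± 0.12 did not pass (adjusted p = 0.0533, limma).

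The call of Gp9 ended in each of the 6 fits that left out 1 of the arrays compared (adjusted p from 0.0533 to 0.149, limma). That of Gp1ba ended without control replicate 1 (adjusted p = 0.0521, limma), without control replicate 3 (0.0617), without exposed replicate 2 (0.0531) and without exposed replicate 3 (0.0526), with differences from 0.33 to 0.40 over the 6 fits.

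Itgb3 encodes integrin β3, which with αIIb forms the fibrinogen receptor that joins platelets to one another. Its log2 levels were 12.32, 12.02 and 12.25 in controls and 12.48, 12.65 and 12.44 after exposure. All exposed arrays were higher, but the difference of 0.33 ± 0.10 (1.25-fold), the smallest of the 9, did not pass (adjusted p = 0.08, limma).

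The receptors for soluble agonists both rose. P2ry12, through which ADP amplifies aggregation, read 11.75, 11.41 and 11.55 in controls and 12.07, 12.47 and 12.20 after exposure, 0.68 ± 0.11 higher (1.60-fold, adjusted p = 0.00574, limma). Replicate 2 was the lowest of the controls and the highest of the exposed arrays. F2rl2 read 12.46, 12.36 and 12.34 in controls and 12.77, 12.86 and 12.81 after exposure, so that each group spanned less than the gap between them. The difference was 0.42 ± 0.07 (1.34-fold, adjusted p = 0.00656, limma).

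Of the chemokines stored in alpha granules, 1 of 2 rose. Ppbp, the precursor of β-thromboglobulin and of the neutrophil-attracting peptide CXCL7, read 12.19, 11.97 and 12.09 in controls and 12.43, 12.74 and 12.55 after exposure. It rose by 0.49 ± 0.09 (1.40-fold, adjusted p = 0.00972, limma). Its neighbour Pf4 read 12.39, 11.81 and 12.30 in controls and 12.46, 12.71 and 12.42 after exposure. Control replicate 2 lay far under the other arrays of the day, and the difference of 0.36 ± 0.13 did not pass (adjusted p = 0.159, limma). With neither array numbered 2 in the fit, a setting chosen after seeing the data, the Pf4 difference was 0.09. Ppbp and Pf4 lie close together on chromosome 14 of GRCr8, at chr14:17586495-17587299 and chr14:17582477-17583392.

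Plek encodes pleckstrin, the main substrate of protein kinase C in activated platelets, which other blood cells express as well. It read 10.99, 10.85 and 10.92 in controls and 11.53, 11.86 and 11.66 after exposure. No other member differed as much: 0.76 ± 0.10 (1.70-fold, adjusted p = 0.00404, limma). In linear intensity its group means were 1941 ± 98 (SD, n = 3) in controls and 3302 ± 381 after exposure.

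**Figure D2:**
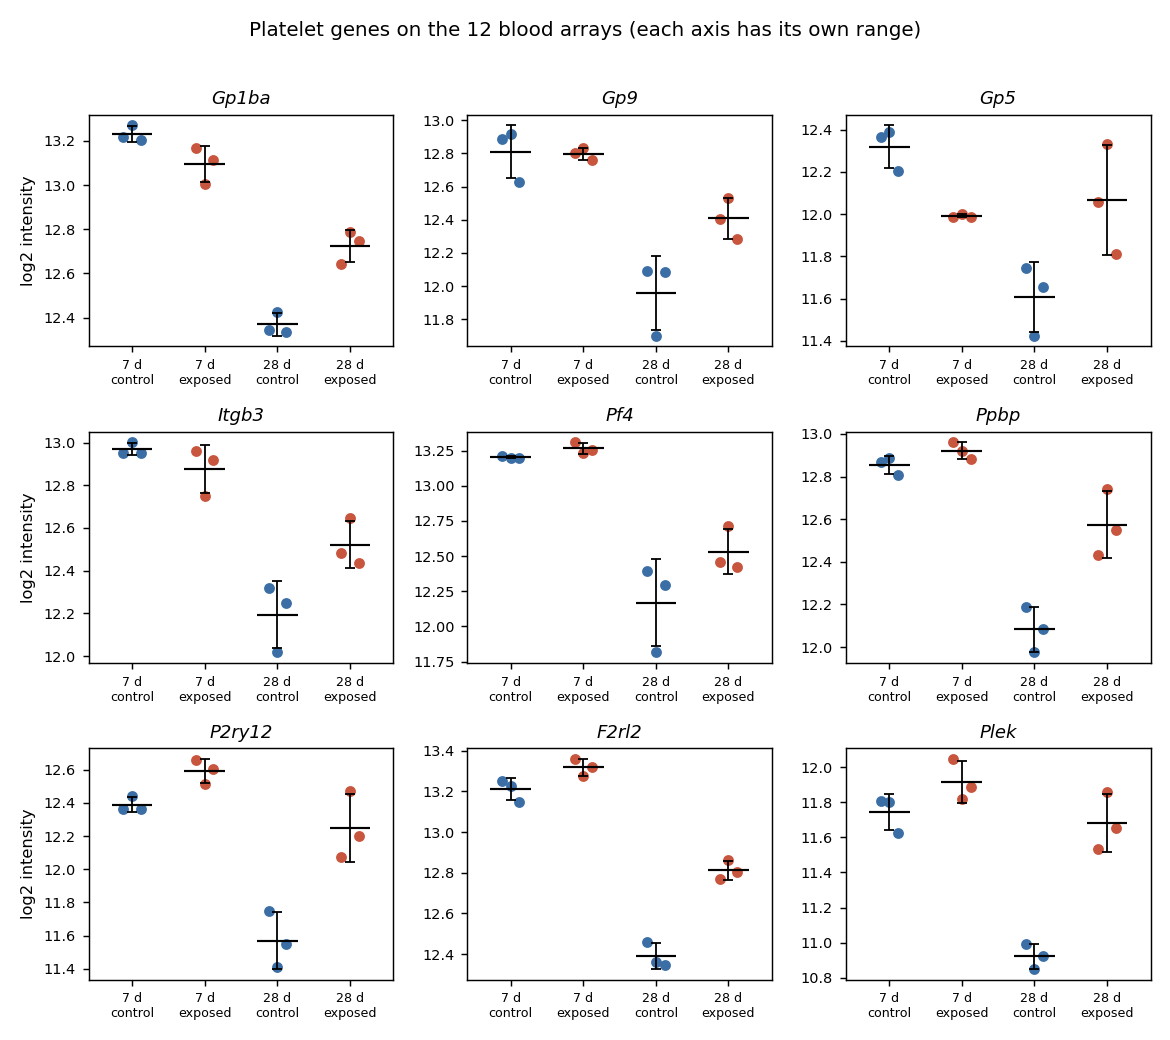
Log2 intensity of the 9 platelet genes on each of the 12 blood arrays, with the groups of day and exposure on the x axis, 1 point per array (replicates 1 to 3 from left to right), a long line at the group mean and bars of 1 SD; each panel has its own range. At 28 days the exposed arrays of every gene lie above the controls, while at 7 days Gp1ba and Gp5 lie lower after exposure.

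At 28 days exposed replicate 2 was the highest exposed array for 9 of 9 genes, and control replicate 2 was the lowest control for 7 of 9 and the highest for Gp1ba. The lowest exposed array was replicate 1 for 5 genes and replicate 3 for 4. Averaged over the 9 genes, the deviation from the mean of the day was −0.38 on control replicate 2 and −0.13 and −0.21 on the other controls, and 0.39 on exposed replicate 2 and 0.16 and 0.17 on the others. Without both arrays numbered 2, an alternative chosen after seeing the data, Plek (0.64), P2ry12 (0.49) and F2rl2 (0.39) passed, 3 of 9. In that fit 650 of all probe sets were called in either direction. Plek, P2ry12, Ppbp and F2rl2 passed in all 6 fits that left out 1 array.

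Counts for this comparison depended on how the spread was estimated. With only the 6 arrays of 28 day blood in the fit, 0 of 9 members passed (adjusted p from 0.069 to 0.426, limma), and 1 of all probe sets did, against 1154 with the 12 blood arrays. With the replicate number as a block 1 member, Plek, passed and 392 probe sets did.

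At 7 days none of the platelet genes passed in blood (0 of 9, adjusted p from 0.237 to 0.974, limma), with a background of 0.475% of probe sets called in either direction. At an unadjusted p under 0.05 the count was 1 of 9, against 15.1% of all probe sets. The median difference was 0.06, beside 0.04 over all probe sets, and the differences ran from −0.33 to 0.20.

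The means of the adhesion complex genes, and of Itgb3 of the fibrinogen receptor, lay at or under those of the controls at 7 days. Gp5 read 12.37, 12.39 and 12.20 in controls and 11.99, 12.00 and 11.99 after exposure, all lower, with a difference of −0.33 ± 0.12 (adjusted p = 0.237, limma). Gp1ba read 13.22, 13.27 and 13.20 in controls and 13.17, 13.00 and 13.11 after exposure, also without overlap (−0.14 ± 0.08). Gp9 (12.89, 12.91 and 12.63 against 12.80, 12.83 and 12.76) and Itgb3 (12.95, 13.00 and 12.95 against 12.96, 12.75 and 12.92) overlapped.

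P2ry12 and F2rl2 had exposed arrays above all controls at 7 days, as did Plek and Pf4, 4 of 9 genes beside 19.5% of all probe sets; all exposed arrays were lower for 2 of 9, beside 10.4%. P2ry12 read 12.36, 12.44 and 12.36 in controls and 12.66, 12.52 and 12.60 after exposure (0.20 ± 0.11). Plek read 11.81, 11.80 and 11.63 against 11.82 to 12.05 (0.17 ± 0.10), F2rl2 13.25, 13.23 and 13.15 against 13.28 to 13.36 (0.11 ± 0.07), Pf4 13.20 to 13.21 against 13.24 to 13.31 (0.06 ± 0.13) and Ppbp 12.81 to 12.89 against 12.88 to 12.96 (0.07 ± 0.09). None of these differences passed.

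**Figure D3:**
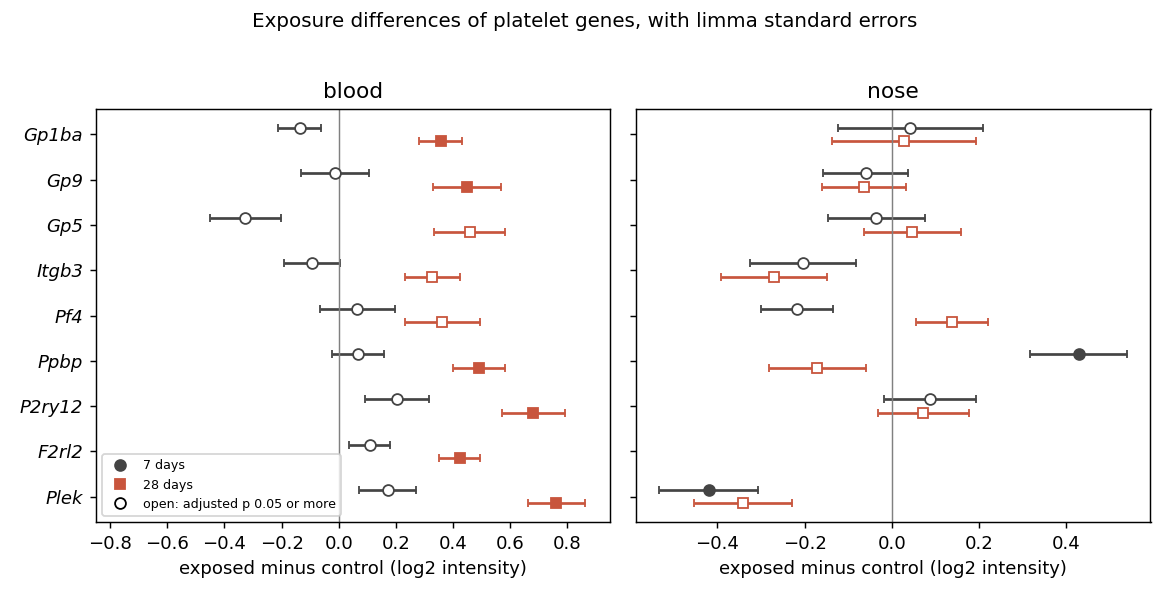
Exposed minus control in log2 intensity for each platelet gene (y axis) in blood (left) and nose (right) at 7 days (circles) and 28 days (squares), with bars of 1 SE from limma and filled symbols where the adjusted p was under 0.05. In blood every 28 day point lies right of 0, with 6 of 9 filled, and F2rl2 is not drawn in nose, where it was under the filter level.

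The exposure differences of the days were then compared directly. The 28 day difference was larger than the 7 day difference for 9 of 9 genes, by 0.30 (Pf4) to 0.79 (Gp5), beside 37.29% of all probe sets. None of the 9 passed (0 of 9, adjusted p from 0.123 to 0.569, limma). The background was 0% of probe sets called. At an unadjusted p under 0.05 the count was 8 of 9, against 11.5% of all probe sets. Gp5 differed by 0.79 ± 0.18 and Gp1ba by 0.49 ± 0.11, both with an adjusted p of 0.123 (limma), and Plek by 0.59 ± 0.14 (adjusted p = 0.138, limma).

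Between the control groups the platelet genes were lower at 28 than at 7 days, by −1.03 to −0.71, and all 9 passed. The background was 88.6% of probe sets called lower, with a median of −0.69 over all probe sets. With quantile normalization 0 of 9 passed and with median centring 3 of 9, so levels are not compared between the days here. The share of calls that were higher moved from 0.44% to 54.98% and 37.97% under these settings.

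In nose the 8 platelet genes tested lay between 6.12 and 8.54, beside array medians of 7.35 to 8.28, and at 7 days Ppbp and Plek passed, in opposite directions. Ppbp read 7.55, 7.49 and 7.66 in controls and 8.17, 7.80 and 8.00 after exposure, 0.43 ± 0.11 higher (adjusted p = 0.0272, limma). Plek read 7.52, 7.26 and 7.45 in controls and 6.88, 7.19 and 6.90 after exposure, 0.42 on the log2 scale lower (−0.42 ± 0.11, adjusted p = 0.0303, limma). That is 1 of 8 higher and 1 of 8 lower, beside 8.43% and 7.84% of all probe sets. All values of both genes lay under the nose array medians of that day (8.25 to 8.28), so the sizes of these differences are uncertain.

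The groups did not overlap for Ppbp, Plek and Pf4 in nose at 7 days (1 gene higher and 2 lower, beside 20.8% and 32.4% of probe sets). Pf4 read 7.12, 7.18 and 7.28 in controls and 7.01, 6.90 and 7.02 after exposure, a difference of −0.22 ± 0.08 that did not pass (adjusted p = 0.101, limma). Fitted without the filter, F2rl2 was lower (−0.58 ± 0.10, adjusted p = 0.006, limma): 7.18, 6.90 and 7.08 in controls against 6.44, 6.48 and 6.50, where the exposed arrays lay under the filter level. With the replicate number as a block, or after quantile normalization, 0 members passed. Ppbp passed only in the fit without exposed replicate 2 among the 6 that left out an array (0.34 to 0.52), and Plek only without control replicate 2 or exposed replicate 2 (−0.52 to −0.36).

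At 28 days 0 of the 8 genes passed in nose (adjusted p from 0.2 to 0.957, limma), beside 0.00456% of probe sets, and 2 of 8 had an unadjusted p under 0.05, beside 15.4%. Plek read 6.69, 6.41 and 6.46 in controls and 6.12, 6.14 and 6.27 after exposure (−0.34 ± 0.11), and Itgb3 7.36, 7.28 and 7.35 against 6.98, 7.01 and 7.19 (−0.27 ± 0.12). For these genes all exposed arrays lay lower, and for Pf4 all lay higher (0.14 ± 0.08), beside 8.70% and 7.48% of probe sets. The remaining 5 genes overlapped between the groups, with differences from −0.17 (Ppbp) to 0.07 (P2ry12). The change of the exposure difference between the days passed for 0 of 8 genes in nose, beside 22 of 21910 probe sets, and had an unadjusted p under 0.05 for 2 of 8, beside 13.6%. Ppbp had the largest such change (−0.60 ± 0.16, adjusted p = 0.188, limma).

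The exposure difference of blood was set against that of nose in a fit of all 24 arrays. At 28 days it was larger in blood for Plek by 1.10 ± 0.15 (adjusted p = 0.00042, limma), for Ppbp by 0.66 ± 0.14 (0.012), for P2ry12 by 0.61 ± 0.16 (0.0269) and for Itgb3 by 0.60 ± 0.16 (0.0321). These are 4 of 8 genes, beside 3.11% of probe sets; Gp9 (0.51 ± 0.15, adjusted p = 0.0586, limma), Gp5, Gp1ba and Pf4 did not pass. The count was 2 without blood control replicate 2, without blood exposed replicate 2 or without nose exposed replicate 1, 2 with the replicate block and 1 with only the arrays of 28 days in the fit. With 1 array left out in turn, P2ry12 lost its call in 5 of 12 fits (adjusted p up to 0.0725, limma) and Itgb3 in 4 of 12 (up to 0.0828), while Plek and Ppbp passed in all 12. The nose means of Plek at 28 days, 6.52 in controls and 6.18 after exposure, lay under the filter level. Median centring moved the share of calls larger in blood from 60.88% to 75.06%.

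At 7 days Plek alone passed in this comparison, 1 of 8 genes beside 5.65% of probe sets: 0.17 in blood and −0.42 in nose, a difference of 0.59 ± 0.15 (adjusted p = 0.0177, limma). This call ended without nose control replicate 1, nose exposed replicate 1 or blood exposed replicate 1 and with the replicate block, and 2 genes passed without nose exposed replicate 2. The nose levels of Plek at 7 days lay under the nose array medians of that day (8.25 to 8.28). Median centring moved the share of calls larger in blood from 52.57% to 42.59%. With only the 7 day arrays in the fit 4 genes passed. The share of all probe sets called in that fit is not given here, so this count is not read as a stronger result.

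Other genes of platelet function were read from 5 lists by role, with 58 genes tested in blood. These lists, and those of other cell types below, were chosen with earlier results of these data known. Their counts are therefore a description and no independent support for the result of the members. In blood at 28 days 28 of the 58 rose and 0 fell, beside 3.95% and 1.31% of probe sets. Not all listed genes went up. Differences lay below 0, without a call, for 3 of 13 receptors, 3 of 11 granule genes and 6 of 17 signalling genes. The same held for 3 of 8 transcription factors and 0 of 9 cytoskeleton genes, while 44.17% of all probe sets lay above 0. The number that rose was 18 without control replicate 2, 18 without exposed replicate 2 and 15 without both. Of the other surface receptors and adhesion molecules 7 of 13 tested rose (list median 0.49), including the collagen receptor subunit Itga2 (1.09 ± 0.14), the inhibitory receptor Mpig6b (0.75 ± 0.14), the tetraspanin Cd9 (0.76 ± 0.14) and the adhesion molecule Cd226 (0.49 ± 0.09). Of the granule contents 7 of 11 rose (median 0.35), with the vessel growth factor Angpt1 at 1.07 ± 0.12, the TGF-β binding protein Ltbp1 at 0.76 ± 0.15, the fibrin crosslinking subunit F13a1 at 0.54 ± 0.10 and clusterin (Clu) at 0.43 ± 0.09.

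Signalling genes rose in 7 of 17 (median 0.30). They included Ptgs1, the cyclooxygenase that starts thromboxane synthesis (0.66 ± 0.10), the cyclic GMP phosphodiesterase Pde5a (0.66 ± 0.10), and both subunits of the nitric oxide receptor, Gucy1a1 (0.97 ± 0.20) and Gucy1b1 (0.97 ± 0.18). Among cytoskeleton genes 4 of 9 rose (median 0.36): the tropomyosin Tpm4 (0.37 ± 0.07), vinculin (Vcl, 0.60 ± 0.13), the myosin light chain Myl9 (0.48 ± 0.11) and Bin2 (0.36 ± 0.08). The transcription factors of megakaryocytes passed in 3 of 8 (median 0.51), Meis1 (0.82 ± 0.17), Nfe2 (0.54 ± 0.12) and Gfi1b (0.70 ± 0.15).

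Some of these counts changed when single arrays were left out, and so did the calls over all probe sets. In either direction these numbered 1154 in the full fit and 792, 801 and 623 without control replicates 1, 2 and 3. Without exposed replicates 1, 2 and 3 they numbered 1258, 623 and 879. Without 28 day control replicate 2 the transcription factors had 0 calls and the cytoskeleton genes 1, and without exposed replicate 2 the cytoskeleton genes had 2 and the granule contents 3. Without control replicate 3 the granule contents had 4. The receptor list kept 6 to 8 calls and the signalling list 5 to 7 over the 6 fits.

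At 7 days 0 of the 58 genes rose in blood and 1 fell, talin (Tln1), which links integrins to actin (−0.66 ± 0.10, adjusted p = 0.0313, limma), beside 0.475% of probe sets. The list medians were −0.16 for receptors, 0.02 for granule contents, −0.02 for signalling, −0.29 for the cytoskeleton and −0.07 for transcription factors. In the same arrays 11 of 11 natural killer genes had differences above 0, beside 62.02% of all probe sets. Of the natural killer genes 2 rose (Gzma, 0.91 ± 0.16, and Gzmb, 0.70 ± 0.13), with a list median of 0.52. Array means of that list were 10.50 to 10.80 in controls and 11.12 to 11.25 after exposure. Red cell genes had differences below 0 for 12 of 13, with a list median of −0.62. All exposed arrays lay lower for 11 of 13, beside 10.4% of all probe sets. Array means of the red cell list were 11.71 to 12.23 in controls and at most 11.33 after exposure. Of the red cell genes 2 fell (Ank1, −1.80 ± 0.33, and Sptb, −1.60 ± 0.29), and the neutrophil gene Ngp fell (−1.75 ± 0.31). The array mean of the neutrophil list was 8.75 on control replicate 2, 7.73 and 7.70 on the other controls and 7.06 to 7.90 after exposure. Without control replicate 2 the median of that list was −0.18 with 0 called, against −0.63 with it, and 0 of the 9 members passed either way. The part of these other cell markers in the platelet values was not tested, and the 7 day counts changed when single arrays were left out. Calls over all probe sets in those 7 day fits are not given here. Without control replicate 1, 1 natural killer gene and 1 red cell gene passed, and 0 of either list without any 1 of the other 5 arrays. Among these 6 fits a gene of the 5 platelet lists passed only without control replicate 1, and a neutrophil gene only without exposed replicate 3.

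Markers of other blood cells moved at 28 days too, and their part in the platelet result was not tested. Genes of natural killer cells rose in 8 of 11 (median 0.63), among them the granzymes Gzmb (0.81 ± 0.13) and Gzma (0.89 ± 0.16), Klre1 (0.94 ± 0.17) and perforin (Prf1, 0.52 ± 0.10); the count was 5 without control replicate 1, control replicate 3 or exposed replicate 3. The array mean of this list ran from 9.80 to 10.07 in controls and from 10.39 to 10.88 after exposure, without overlap. It was highest on exposed replicate 3, whereas the platelet genes were highest on exposed replicate 2.

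Neutrophil genes had a median of −1.41, with 1 of 13 called lower (Ngp, −1.41 ± 0.31), and their array mean ran from 7.00 to 8.74 in controls and from 6.20 to 6.73 after exposure. Without control replicate 2 their median was −0.48 and 0 were called; 0 were also called without control replicate 3, exposed replicate 2 or exposed replicate 3. Monocyte genes fell in 2 of 12 (median −0.70), Cd68 (−1.19 ± 0.27) and Fn1 (−2.36 ± 0.59), with array means of 9.23 to 10.04 in controls and 8.49 to 9.15 after exposure. The monocyte count was 1 without control replicate 1, 5 without exposed replicate 1 and 0 without any 1 of the other 4 arrays. In the fit without control replicate 2 the median of the platelet members was 0.39, with 5 of 9 called, beside 801 of all probe sets in either direction.

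T cell genes fell in 2 of 12 (median −0.22), the transcription factors Lef1 (−0.52 ± 0.12) and Tcf7 (−0.46 ± 0.12), with 0 called without control replicate 1, control replicate 3, exposed replicate 2 or exposed replicate 3 and 1 without control replicate 2. Their array means overlapped (10.76 to 10.99 in controls and 10.44 to 10.88 after exposure). Red cell genes had array means of 10.50 to 11.16 in controls and 10.36 to 10.96 after exposure, a median of −0.15, and 1 of 13 that rose, Rhag (1.03 ± 0.13). None of 6 B cell genes passed (median −0.17; Jchain 0.88 ± 0.31 and Cd79b −0.35 ± 0.15), nor of 6 nasal epithelial genes (median −0.01; Krt8 0.24 ± 0.12 and Krt19 −0.05 ± 0.12). Of 9 endothelial genes 1 rose, the growth factor receptor Kdr (0.64 ± 0.11, median of the list 0.06).

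**Figure D4:**
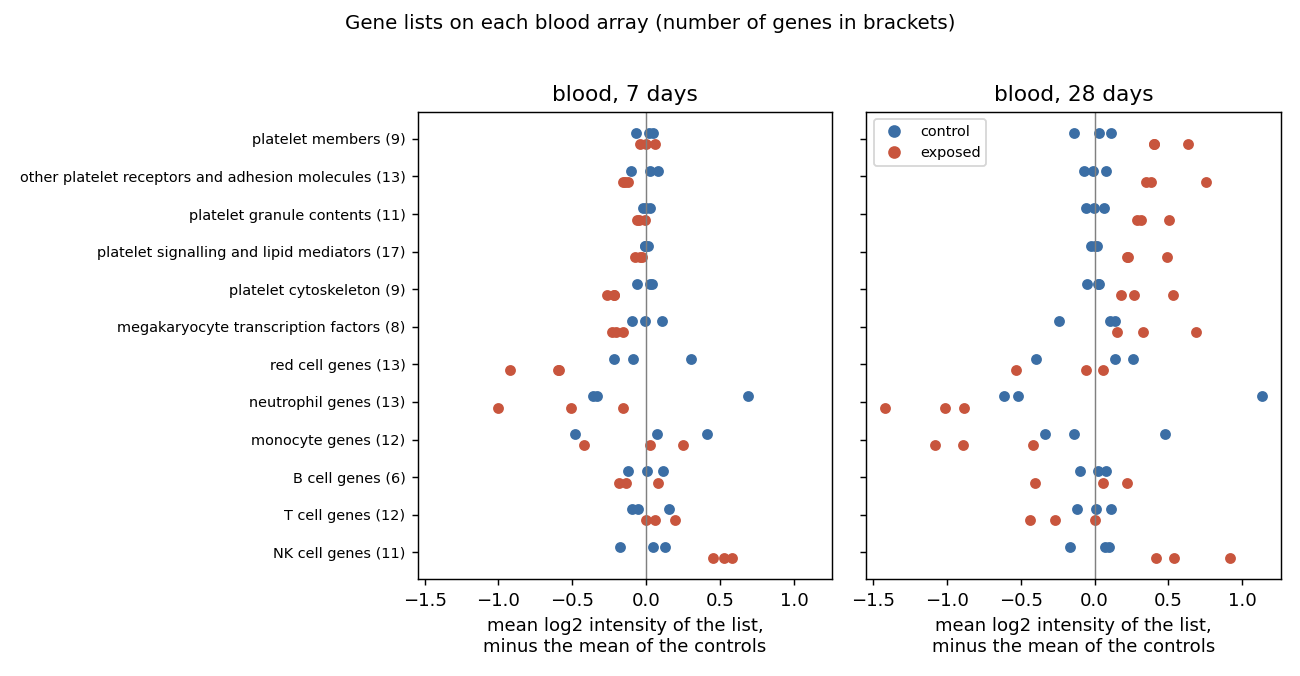
Mean log2 intensity of 12 gene lists (y axis) on each blood array of 7 days (left) and 28 days (right), minus the mean of the controls of that day, with 1 point per array. At 28 days the platelet lists and the NK (natural killer) list lie right of the controls, and the neutrophil point far to the right is control replicate 2, with a mean of 8.74.

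In nose at 7 days more genes of the 5 lists fell than rose. Of 54 genes tested there 21 fell and 2 rose, beside 7.84% and 8.43% of probe sets: 4 of 12 receptors, including Pear1 (−0.53 ± 0.10) and the ATP-gated channel P2rx1 (−1.05 ± 0.21), 4 of 10 granule contents, including Pdgfb (−0.51 ± 0.10) and Angpt1 (−0.49 ± 0.11), 9 of 17 signalling genes, including Plcb2 (−0.65 ± 0.09) and the thromboxane synthase Tbxas1 (−0.98 ± 0.17), 3 of 8 cytoskeleton genes, including Tln1 (−0.45 ± 0.09) and Myl9 (−0.57 ± 0.14), and 1 of 7 transcription factors, Fli1 (−0.61 ± 0.14). Without control replicate 1 the number that fell was 6, without control replicate 3 it was 9, and without exposed replicate 1 it was 5, against 15 to 20 without any 1 of the other arrays. Calls over all probe sets in these nose fits are not given here. Many of these genes are also made by vessel and immune cells, and Esam and Vwf stand on a platelet list and on the endothelial list. All 10 endothelial genes fell there (median −0.71; Erg −0.71 ± 0.11 and Pecam1 −0.97 ± 0.15), as did 8 of 11 monocyte genes (median −0.50). Without control replicate 1, control replicate 3 or exposed replicate 1 the endothelial count was 3, 6 and 3, and the monocyte count was 2 without each of these and 5 without control replicate 2. Their part in the platelet lists was not tested. At 28 days 0 genes of these lists passed in nose.

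Over the 12 blood arrays, taken as deviations from the mean of the day, each member followed the mean of the other members with a Pearson r from 0.76 (Gp5) to 0.97 (Ppbp). The 10 named genes outside the members that followed the members' mean most closely had r from 0.988 to 0.995: Serpinb6a, Me1, Ly6g6f, Ptgs1, Nrcam, Stom, Vipr2, Aig1, Rnf103 and Arhgap10. These r values describe arrays that share their exposure groups and scaling, and carry no p. Since the r was taken over the same arrays, with the exposure difference in them, a pattern over the days like that of the members was fixed by the choice of these genes. As a description, their 28 day differences ran from 0.37 ± 0.08 for the membrane protein stomatin (Stom) to 1.08 ± 0.18 for the neuropeptide receptor Vipr2. Ptgs1 was the only 1 of them on a platelet list.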

How the data were processed

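RNA of nasal epithelium and white blood cells was hybridised to 24 Affymetrix arrays. The authors deposited a table of linear, positive intensities with 1 value for each probe set on an array. The submitters' processing notes name Partek, with no role given. Its version and the way arrays were normalised are not stated in the sources used here.

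The log2 of each value was taken without rescaling. The filter kept probe sets whose mean reached percentile 25 of a tissue, 21910 per tissue and 20096 shared by both. The model was limma 3.58.1 (R 4.3.3), with 4 group means over the 12 arrays of 1 tissue or with all 24 arrays between tissues, two-sided, and Benjamini-Hochberg adjustment across the probe sets kept. The script was tested on simulated data with 200 probe sets changed. The 3 arrays of a group limit the precision. matplotlib 3.10.9 drew the figures.

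Members and lists were chosen with earlier results of these data known. The rule named all members; of each list the 4 genes with the largest moderated statistic among those past the threshold in a blood exposure comparison, 2 in other comparisons or where none passed; and the 10 genes that followed the members most closely. The platform's gene table named probe sets: 15310 had 1 symbol, 323 had several and 13581 were not listed. Itga2b was not analysed here. Promoters and gene positions came from RefSeq tables of GRCr8.

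Same-numbered control and exposed arrays had residuals correlated above 0.1 in every pair only in nose at 28 days (r of 0.192, 0.247 and 0.154). Elsewhere r ran from −0.348 to 0.0697. Differently numbered arrays were not correlated for reference, so these r values cannot decide whether the numbers pair arrays. Alternatives varied the filter, scaling, prior, threshold, probe sets per gene, replicate block and arrays in the fit.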

Additional observations from a re-analysis of the deposited data

Results flagged for a closer look

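The exposure difference was tested between blood and nose (limma, all 24 arrays), and 5 results passed. For Plek the difference in blood exceeded that in nose by 0.59 at 7 days and by 1.10 at 28 days. At 28 days it exceeded that in nose by 0.66 for Ppbp, 0.61 for P2ry12 and 0.60 for Itgb3. Without single arrays the call of P2ry12 ended in 5 of 12 fits and that of Itgb3 in 4 of 12, and the 7 day call of Plek ended in 3 of 12. In blood the 28 day differences of these genes were 0.76 for Plek, 0.49 for Ppbp, 0.68 for P2ry12 and 0.33 for Itgb3, and in nose −0.34, −0.17, 0.07 and −0.27. None of these nose differences passed, and that of Itgb3 passed in neither tissue (adjusted p = 0.08 in blood and 0.322 in nose, limma). Fewer of the 28 day calls remained with the replicate block or with only the arrays of 28 days in the fit.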

How the results depend on the processing

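Among the exposure results, members called in blood at 28 days numbered 6, and 5 to 8 under other filters, scalings, priors and thresholds; the count was 1 with the replicate block, 0 with only the arrays compared, 3 with neither array numbered 2 (chosen after seeing the data) and 4 to 5 without single arrays. Quantile normalization gave 6, but without Gp9 (adjusted p = 0.077, limma) and with Gp5. The block changed no member call in blood at 7 days or in nose at 28 days, with 0 called either way. For all probe sets in blood at 7 days, 104 were called, 55 with no filter, 179 with the median filter, 264 after quantile normalization, 2 with the block, 463 with only the arrays compared and 537 at adjusted p under 0.1. In nose at 7 days 2 members became 0 with the median filter (1 member tested), quantile normalization or the block, and 0 to 2 without single arrays. Between the 7 and 28 day blood controls 9 became 0 with quantile normalization and 3 with median centring. The blood minus nose exposure difference at 7 days gave 1 member, 2 with no filter, 0 with the median filter or the block, 4 with only the arrays compared and 0 to 2 without single arrays. The share of all probe sets called for this difference in these settings is not given here. At 28 days 4 became 1 with the median filter, with only the arrays compared or with neither array numbered 2, 2 with the block, and 2 to 5 without single arrays. With the median filter 1 member remained tested between tissues, so 8 calls became 1 at both days for controls. The change of the nose difference between days gave 0 to 1 without single arrays.

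Some directions turned. After quantile normalization Gp5, called lower between the blood controls, was 0.040, and the change of the nose difference between days was 0.019 for Gp1ba and 0.011 for P2ry12. With neither array numbered 2 the 28 day blood minus nose difference of Pf4 was −0.046. For values that did not pass, the range without single arrays spanned 0 for Gp9 in blood at 7 days (−0.10 to 0.038); in nose at 7 days for Gp1ba (−0.088 to 0.12) and Gp5 (−0.063 to 0.012); in nose at 28 days for Gp1ba (−0.12 to 0.22), Gp5 (−0.035 to 0.18), Gp9 (−0.13 to 0.017) and P2ry12 (−0.034 to 0.15); for the change between days in nose for Gp1ba (−0.16 to 0.18), Gp9 (−0.071 to 0.08), Itgb3 (−0.19 to 0.062) and P2ry12 (−0.12 to 0.058); and for the blood minus nose difference at 7 days for Gp9 (−0.044 to 0.10) and Itgb3 (−0.010 to 0.24). The cause was not tested. Signal over background limits the nose values, where F2rl2 lay under the filter level.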
